A study of Mus musculus with 9 samples.

Results

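The cytosolic ribosomal protein genes were compared between hindlimb skeletal muscle of wild-type mice and of SMA mice. They were taken as the rows of the deposited count table whose symbol is Rpl or Rps followed by digits and at most a short ending, plus Rplp0, Rplp1, Rplp2 and Rpsa. Names starting Rps6k, which are kinases, and names with the pseudogene ending -ps were left out. This gave 85 of the 32594 genes in the table, 49 of the large subunit, 33 of the small subunit and 3 of the stalk, from 103 rows whose symbol starts Rpl or Rps. Of the rows left out, 10 were kinases, 6 had pseudogene names and 2 had other endings (Rpl37rt and Rps19bp1).

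Both groups were on the FVB/N background. The 5 WT libraries came from wild-type mice and the 4 SMA libraries from SMN delta 7 mice, a severe model of spinal muscular atrophy that, as background, lacks the mouse Smn1 gene product and lives on human SMN transgenes. The age of the mice is not given in the sources used here, and nothing says that the libraries of a group came from separate animals, so p-values measure the spread between these libraries. Polyadenylated RNA was sequenced as pairs of 75-base reads, and the libraries held 24917665 to 35087722 counts.

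The ribosome is built from ribosomal RNA and one copy of most of its proteins, with the large subunit joining amino acids and the small subunit reading the mRNA. The mRNAs of ribosomal proteins carry a tract of pyrimidines at their very start, the TOP motif, through which mTORC1 controls their translation. A few ribosomal proteins have a paralogue encoded by another gene, and in striated muscle the large-subunit protein Rpl3, which lies near the peptidyl transferase centre, is in part replaced by its paralogue Rpl3l.

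Levels below are in CPM, counts brought to a common library size after TMM scaling, which sets the libraries against each other on the genes that differ least. A gene is said to have risen or fallen in SMA muscle where edgeR's quasi-likelihood test gave a Benjamini-Hochberg adjusted p under 0.05 over the 15873 genes tested, and each log2 fold change is SMA over WT with its standard error (SE). Smn1 was at 13.1, 13.5, 13.8, 11.1 and 13.3 CPM in WT libraries 1 to 5 and at 1.80, 2.24, 1.40 and 2.72 CPM in SMA libraries 1 to 4, which goes with the labels. The summed CPM of 9 muscle fibre markers ranged from 141309 to 195074 in WT and from 76237 to 91263 in SMA, and 7 of the 9 fell. None of 10 cell-type lists had a marker at 0 in every library. Y-linked genes together had more counts than Xist in 4 of the 5 WT and 1 of the 4 SMA libraries. Each library's sex was set by this comparison, so sex and group overlap in part. On the first 2 principal components SMA replicate 3 and WT replicate 5 stood farthest from the rest of their groups. In whole tissue, fewer cells of a type and less RNA per cell cannot be told apart.

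Among the 84 ribosomal protein genes chosen by symbol and tested, Rpl3l showed the largest fall and Rpl3 the largest rise. Rpl3l lies at chr17:24727820-24736143 on the plus strand and Rpl3 at chr15:80077791-80091868 on the minus strand (GRCm38, GENCODE M21). Their coding sequences run over 407 and 403 codons and are identical at 74.2% of aligned bases, with a longest identical run of 22 bases. The stretch of 75 coding bases in which they are most alike, the length of 1 read, is shown because the comparison of the pair rests on reads that tell them apart. Both stretches are coding bases 85 to 159 counted from the start codon in GENCODE transcripts, and capitals mark the 14 bases at which they differ:
Rpl3: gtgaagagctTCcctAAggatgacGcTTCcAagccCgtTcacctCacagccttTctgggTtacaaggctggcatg
Rpl3l: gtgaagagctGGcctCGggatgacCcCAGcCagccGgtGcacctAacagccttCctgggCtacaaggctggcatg

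Rpl3l was at 639, 449.7, 540.2, 537 and 594 CPM in WT libraries 1 to 5 and at 215, 249.5, 296 and 216 CPM in SMA libraries 1 to 4. Every SMA library was below every WT library. The log2 fold change was -1.18 (SE 0.13, edgeR adjusted p = 1.47e-05), a fall of 55.8% in mean CPM from 552 ± 71.0 (SD, n = 5) to 244 ± 38.0 (SD, n = 4). Rpl3 went the other way, at 35.5, 36.3, 36.9, 36.3 and 23.4 CPM in WT and 53.1, 45.7, 46.1 and 46.2 CPM in SMA. The groups did not overlap for Rpl3 either, and WT replicate 5 was far below the other WT libraries. Its log2 fold change was 0.50 (SE 0.12, adjusted p = 0.00432 by the same test), a mean of 33.7 ± 5.75 CPM (SD, n = 5) against 47.8 ± 3.55 (SD, n = 4), and was 0.40 without WT replicate 5.

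Per kilobase of transcript, Rpl3l was the more abundant of the pair in every library of both groups. Its mean level was 402 CPM per kilobase in WT and 178 in SMA, against 24.9 and 35.4 for Rpl3. The ratio of Rpl3l to Rpl3 per length fell from a mean of 16.7 in WT to 5.06 in SMA. As a share of the pair, Rpl3l was 94.7%, 92.4%, 93.5%, 93.6% and 96.1% in WT libraries 1 to 5 and 79.9%, 84.3%, 86.3% and 82.2% in SMA libraries 1 to 4. The groups were apart, with means of 94.1% ± 1.41 (SD, n = 5) and 83.2% ± 2.76 (SD, n = 4). A two-sided exact permutation test over all divisions of the libraries gave p = 0.00794, the smallest it can give with groups of 5 and 4. This share needs no scaling between libraries.

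The size of the share, though not the direction of its difference between the groups, differed with the length the counts were divided by. How the authors treated reads common to several genes is not given in the sources used here. Of the 75-base windows of the Rpl3 transcript, 16.8% occurred in no other annotated gene, and 8 other genes shared at least 1 window with it. For Rpl3l all windows were its own. Counted per such window, Rpl3l was 72.8% of the pair in WT and 45.5% in SMA, and its ratio to Rpl3 was 2.80 and 0.847. By this measure Rpl3l was below Rpl3 in SMA replicates 1, 2 and 4 (ratios 0.665, 0.899 and 0.770). It was above Rpl3 in SMA replicate 3 (1.06) and in every WT library. The muscle fibre markers, which had a median log2 fold change of -1.12, moved down with Rpl3l, and their part in its fall was not tested.

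**Figure D1:**
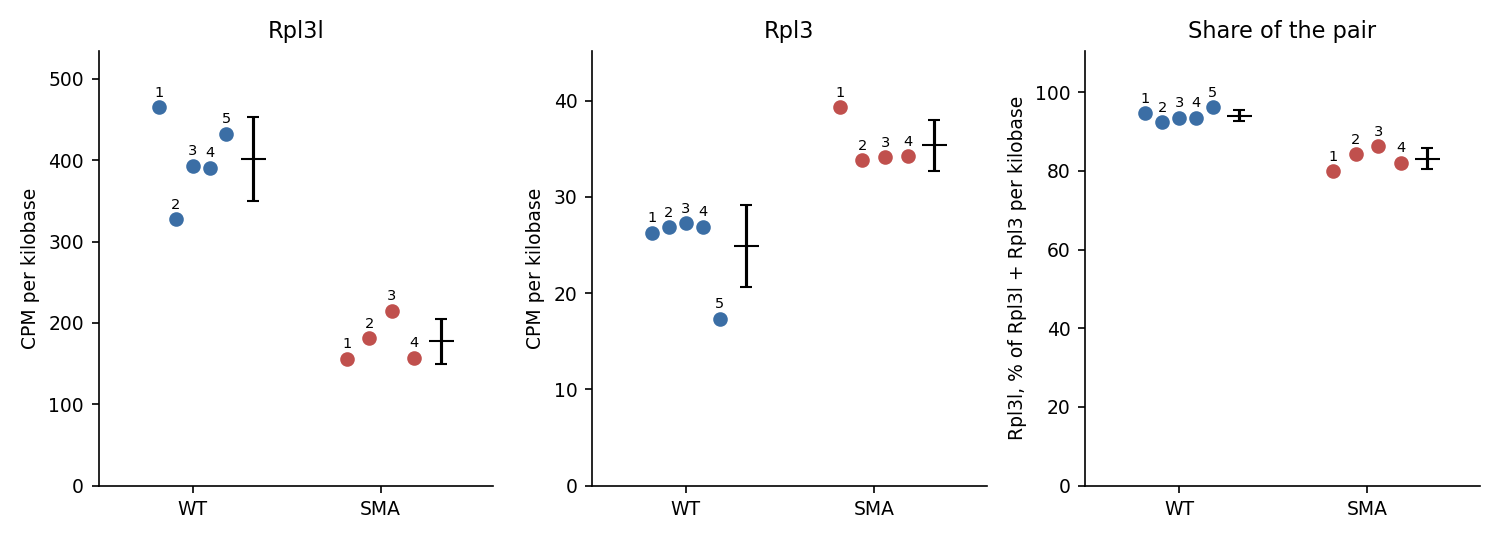
Rpl3l and Rpl3 in CPM per kilobase of transcript (left and middle, linear axes from 0) and Rpl3l as a percentage of both (right), with 1 point per library, numbered by replicate, and the mean ± SD beside each group. Rpl3l is lower in every SMA library and Rpl3 higher, and the share goes from 94.1% in WT to 83.2% in SMA.

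Among all the cytosolic ribosomal protein genes the changes were small outside the paralogues. Of the 84 tested, 9 rose, 22 fell and 53 did not pass, with a median log2 fold change of -0.10 against 0.01 over all genes tested. Of all genes tested, 27.7% rose and 27.2% fell (54.9% in either direction), so the share of ribosomal protein genes that fell, 26.2%, was near the background and the share that rose, 10.7%, was under it. The gene not tested was Rpl10l, the testis-expressed paralogue of Rpl10, with 2 counts in WT replicate 2, 1 in WT replicate 5 and none in the other libraries. Groups did not overlap for 7 members with SMA above and 17 with SMA below, against 22.6% and 21.7% of all genes tested (44.2% in either direction). Only 4 of the 84 changed by at least 1.5-fold, against 33.9% of all genes tested. All 4 were paralogues (Rpl3l, Rpl39l, Rpl36al and Rpl7l1).

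The split between rises and falls turned with the scaling. Scaled to total counts alone, 25 members rose and 3 fell (all genes tested 40.2% and 13.6%), and their median was 0.13, while the median of all genes tested moved to 0.24. Under both scalings the members' median was thus below that of all genes. The 3 that still fell were Rpl3l, Rpl36al and Rpl7l1. The number that fell also rested on single libraries. It was 14 without WT replicate 4 and 14 without SMA replicate 2. Over all genes tested, 3739 to 4547 fell when 1 library at a time was left out, against 4319 with every library. Without WT replicate 5 and SMA replicate 3 together, 36 of the members fell. The count over all genes in that fit is not given here.

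**Figure D2:**
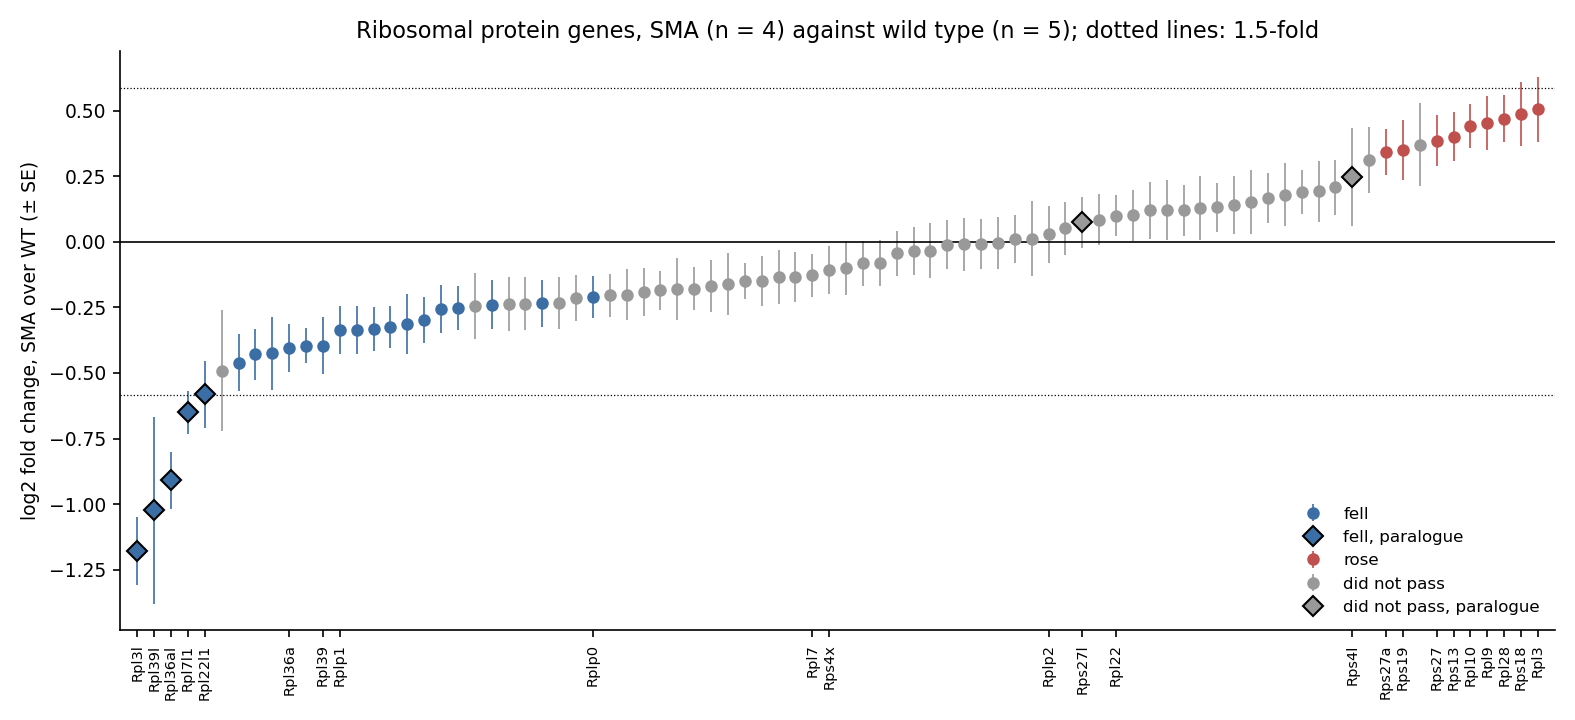
Log2 fold change (SMA over WT, TMM scaling) of the 84 ribosomal protein genes tested, ordered from lowest to highest, with the paralogues, their partners, the stalk genes and the genes that rose named on the axis, bars of ± 1 SE, diamonds for paralogues and dotted lines at 1.5-fold. Rpl3l at -1.18 and Rpl3 at 0.50 are the ends of the order, and the genes beyond 1.5-fold are paralogues.

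In their ribosomal protein mRNA as a whole, libraries of 1 group differed more than the group means did. The median over the members of log2 CPM minus the WT mean was 0.07, -0.05, -0.04, 0.19 and -0.16 in WT libraries 1 to 5 and -0.06, -0.24, -0.02 and -0.04 in SMA libraries 1 to 4. WT replicate 4 was the highest and SMA replicate 2 the lowest, and the groups overlapped. In WT replicate 4, 78 of the 84 were above their own WT mean, and in WT replicate 5 only 11 were. Together the members took 1.02% ± 0.13 of all counts in WT (SD, n = 5) and 1.09% ± 0.10 in SMA (SD, n = 4). Without the 10 most abundant genes, which took 23.4% of WT and 17.9% of SMA counts, the shares were 1.32% and 1.33%.

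**Figure D3:**
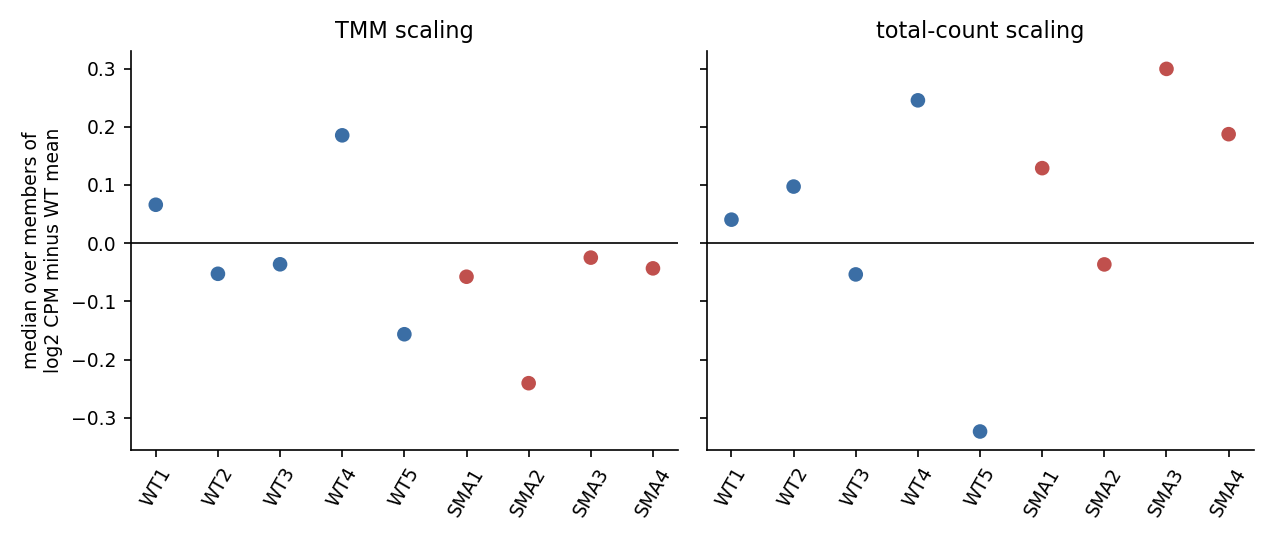
Median over the ribosomal protein genes of log2 CPM minus the WT mean, 1 point per library, with TMM scaling (left) and scaling to total counts (right). WT and SMA libraries overlap in both panels, and WT replicate 4 is above and WT replicate 5 below the other WT libraries.

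Of the 7 paralogues tested, 5 fell and none rose, with a median log2 fold change of -0.65. Of their 7 partners 2 rose and 2 fell, with a median of -0.11, and the difference between these counts was not tested. Of all genes tested, 27.2% fell and 27.7% rose. Scaled to total counts, 3 paralogues fell, and Rps27l rose (log2 fold change 0.31, edgeR adjusted p = 0.0143). Rps4l, kept by its symbol, is annotated in GENCODE M21 as a transcribed processed pseudogene. Without the paralogues, 77 members remained, of which 9 rose and 17 fell, and their log2 fold changes ran from -0.49 to 0.50.

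Rpl36al, the autosomal copy of the X-linked Rpl36a, fell most after Rpl3l and Rpl39l. It was at 14.5, 14.5, 14.8, 15.2 and 17.9 CPM in WT and 7.39, 7.19, 8.72 and 9.43 CPM in SMA. These groups were well apart, with a log2 fold change of -0.91 (SE 0.11, edgeR adjusted p = 2.93e-05). Rpl36a also fell, from 12.2, 10.6, 10.7, 12.8 and 12.1 CPM in WT to 8.79, 8.15, 8.89 and 9.49 CPM in SMA (log2 fold change -0.40, SE 0.09, adjusted p = 0.00286), a call lost with total-count scaling (adjusted p = 0.219). The share of Rpl36al in the pair per length was 54.7% ± 2.42 in WT (SD, n = 5) and 45.9% ± 2.03 in SMA (SD, n = 4), without overlap. The coding sequences of this pair are 87.8% identical, and 38.7% of the windows of Rpl36al and 15.4% of those of Rpl36a occurred in no other gene.

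Rpl7l1, a more distant relative of the large-subunit protein Rpl7 (56.0% identity of aligned coding bases), was at 61.1, 55.1, 60.9, 56.7 and 66.3 CPM in WT and 37.2, 36.2, 42.9 and 36.7 CPM in SMA. The lowest WT library was above the highest SMA library, and the log2 fold change was -0.65 (SE 0.08, adjusted p = 4.16e-05 by edgeR). Rpl7 itself had a log2 fold change of -0.13 (SE 0.08, adjusted p = 0.206). Of the windows of Rpl7l1, 96.1% were its own, so its counts shared little with other genes. Its share of the pair was 9.36% ± 0.94 in WT (SD, n = 5) and 6.69% ± 0.25 in SMA (SD, n = 4), again without overlap.

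Rpl22l1 pairs with Rpl22, an RNA-binding protein of the large subunit. It was at 28.1, 21.7, 23.3, 29.7 and 21.5 CPM in WT and 16.5, 13.9, 19.99 and 16.1 CPM in SMA, so that SMA replicate 3 came close to the lowest WT library. It fell by 0.58 on the log2 scale (SE 0.13, edgeR adjusted p = 0.0023), and with total-count scaling it did not pass (-0.34, adjusted p = 0.0761). Rpl22 had a log2 fold change of 0.10 (SE 0.08, adjusted p = 0.302). The share of Rpl22l1 in the pair per length was 13.3% ± 1.19 in WT (SD, n = 5) and 8.73% ± 0.77 in SMA (SD, n = 4), and the groups were apart. Of the windows of Rpl22l1 41.4%, and of those of Rpl22 93.0%, occurred in no other gene.

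Rpl39l, best known from testis, was barely detected, at 0.660, 0.7098, 0.267, 0.804 and 0.673 CPM in WT and 0.172, 0.293, 0.447 and 0.309 CPM in SMA. WT replicate 3 lay among the SMA libraries. Its fall (log2 fold change -1.02, SE 0.36, adjusted p = 0.0283) did not pass with sex as a covariate (-0.62, adjusted p = 0.29 in the same test) or when any of 5 libraries was left out (adjusted p from 0.0545 to 0.0882 in those fits). Rpl39, the X-linked partner, which lines the exit tunnel for the new protein, fell from 45.7, 44.8, 44.9, 56.6 and 46.7 CPM in WT to 35.6, 29.6, 42.4 and 37.6 CPM in SMA (log2 fold change -0.40, SE 0.11, adjusted p = 0.00861). The groups of Rpl39 did not overlap, and with total-count scaling it did not pass (adjusted p = 0.338).

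Of the small-subunit pairs, neither paralogue passed the test. Rps27l, a paralogue of Rps27 known as a p53 target, was between 59.9 and 77.3 CPM in WT and between 66.4 and 80.5 CPM in SMA (log2 fold change 0.07, SE 0.10, adjusted p = 0.546). Rps27 rose, from 164, 165, 157, 197.2 and 141 CPM in WT to 221, 197.3, 226 and 217 CPM in SMA (log2 fold change 0.39, SE 0.10, adjusted p = 0.00542). The lowest SMA library of Rps27 only just exceeded the highest WT library. The share of Rps27l in its pair per length was 22.3% ± 2.93 in WT (SD, n = 5) and 18.7% ± 1.32 in SMA (SD, n = 4). Its mean was lower in SMA but the groups overlapped, whereas in 4 of the large-subunit pairs they did not. Only 1.48% of the windows of Rps27, against 88.0% of those of Rps27l, occurred in no other gene, so the size of this share is uncertain. For Rps4l and the X-linked Rps4x the log2 fold changes were 0.25 (SE 0.19) and -0.11 (SE 0.09), and neither gene passed the test.

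**Figure D4:**
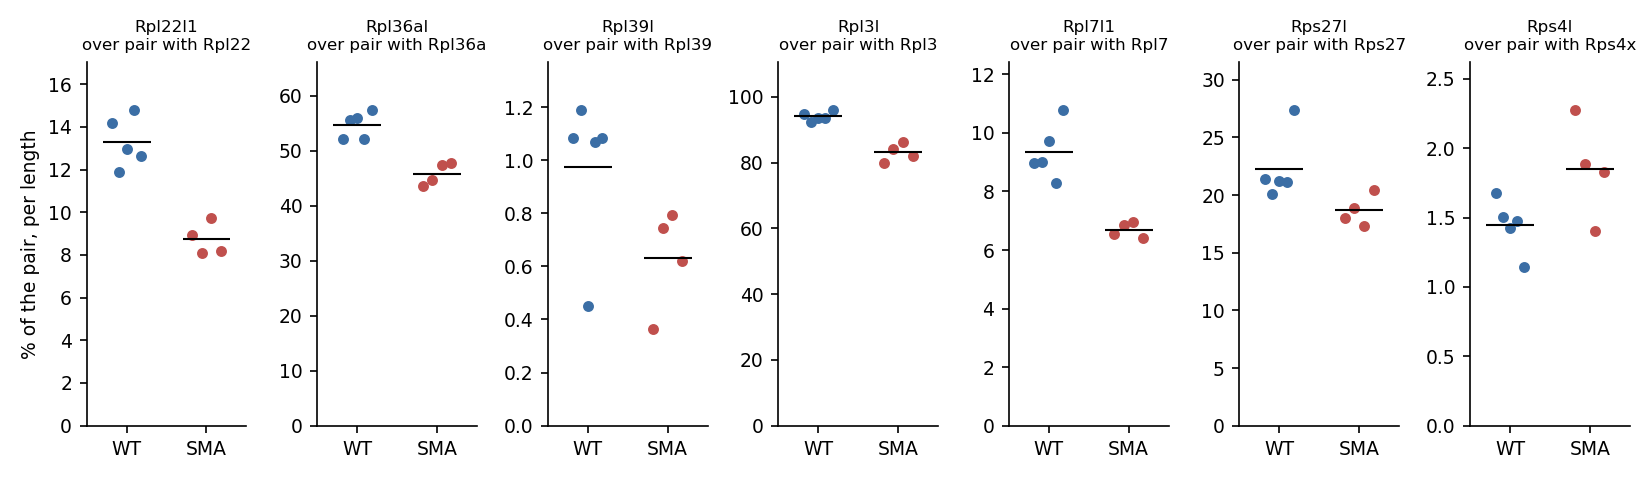
Percentage of each paralogue in the sum of the paralogue and its partner, in CPM per kilobase, with 1 point per library (blue WT, red SMA), a line at the group mean and a linear axis from 0 in each panel. Rpl22l1, Rpl36al, Rpl3l and Rpl7l1 have every SMA library below every WT library, and Rpl39l, Rps27l and Rps4l overlap.

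The stalk, which recruits the GTPase translation factors to the ribosome, is built of Rplp0 with copies of Rplp1 and Rplp2. Rplp1 was at 377, 371, 367, 439.9 and 365 CPM in WT and 317, 269, 321 and 309 CPM in SMA, and fell by 0.34 on the log2 scale (SE 0.09, edgeR adjusted p = 0.00816). Rplp0, often used as a reference gene, was at 702, 651, 676, 732 and 686 CPM in WT and 625, 568, 591 and 598 CPM in SMA. The groups of both genes were apart. The change of Rplp0 was -0.21 (SE 0.08, adjusted p = 0.0412) and is a borderline call, lost when any of 7 libraries was left out and at 0.02 with total-count scaling. Rplp1 did not pass with total-count scaling either (-0.10, adjusted p = 0.452). Rplp2 ranged from 44.7 to 50.3 CPM in WT and from 37.2 to 56.9 CPM in SMA (log2 fold change 0.03, SE 0.11, adjusted p = 0.841).

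In the small subunit, 5 of 33 genes rose and 7 fell (15.2% and 21.2%), against 27.7% and 27.2% of all genes tested. Rpsa, which also serves as a laminin receptor precursor, was at 323, 260.3, 266, 331 and 281 CPM in WT and 231, 205, 225 and 208 CPM in SMA. All SMA libraries were below all WT libraries, with a log2 fold change of -0.43 (SE 0.10, edgeR adjusted p = 0.00262). It did not pass with total-count scaling (adjusted p = 0.138).

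Rps2, at 106 to 125 CPM in WT and 87.5 to 104 CPM in SMA, and Rps10, at 71.2 to 89.9 CPM in WT and 60.5 to 70.9 CPM in SMA, fell by 0.32 and 0.25 on the log2 scale without overlap of the groups. Rps29, at only 4.71 to 9.30 CPM over all libraries, and Rps26 fell by 0.42 and 0.30 with overlap. With total-count scaling none of these 4 genes was among those that fell.

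Among these 33 genes Rps18 had the largest rise, from 9.28, 9.26, 8.73, 10.9 and 7.05 CPM in WT to 12.3, 11.2, 13.6 and 13.6 CPM in SMA. Its groups did not overlap, and the log2 fold change was 0.49 (SE 0.12, edgeR adjusted p = 0.00468). Rps13 was at 14.8 to 19.1 CPM in WT and 20.4 to 24.1 CPM in SMA (log2 fold change 0.40, SE 0.09, adjusted p = 0.00326). Rps27a, made as a fusion with ubiquitin, and Rps19, a gene mutated in Diamond-Blackfan anaemia, rose by 0.34 and 0.35 on the log2 scale with overlapping groups. Rps6, the substrate of the S6 kinases, was at 72.2 to 98.6 CPM in WT and 74.5 to 94.7 CPM in SMA (log2 fold change -0.01, SE 0.10, adjusted p = 0.938).

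In the large subunit, 4 of 48 genes rose and 13 fell, 5 of the latter paralogues. These are shares of 8.33% and 27.1%, against 27.7% and 27.2% of all genes tested. Rpl28 was at 13.8, 13.3, 14.7, 14.7 and 12.1 CPM in WT and 20.1, 17.3, 20.5 and 18.02 CPM in SMA (log2 fold change 0.47, SE 0.09, edgeR adjusted p = 0.000854). Rpl10, one of the last proteins to join the subunit, was at 72.1, 64.4, 64.5, 71.9 and 56.1 CPM in WT and 93.9, 84.7, 90.2 and 88.7 CPM in SMA (log2 fold change 0.44, SE 0.08, adjusted p = 0.000805). Rpl9, which lies near the base of the stalk, was at 8.42 to 9.98 CPM in WT and 10.8 to 14.5 CPM in SMA (log2 fold change 0.45, SE 0.10, adjusted p = 0.0029). The groups of these 3 genes did not overlap. With total-count scaling Rpl3, Rps18, Rpl28, Rpl9, Rpl10, Rps13 and Rps27 rose as well.

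The other falls in the large subunit were modest. Rpl15, which binds ribosomal RNA deep in the subunit, was at 165, 157, 161, 189 and 156 CPM in WT and 135, 123, 141 and 127 CPM in SMA (log2 fold change -0.33, SE 0.08, edgeR adjusted p = 0.00507). Its groups did not overlap, and neither did those of Rpl31, which fell by 0.34 on the log2 scale. Rpl41, the shortest ribosomal protein, Rpl32 and Rpl27a fell by 0.31, 0.26 and 0.23, each with overlapping groups. The 53 genes of both subunits and the stalk that did not pass had log2 fold changes from -0.49 for Rpl26, at 0.973 to 2.17 CPM over all libraries, to 0.37 for Rpl34.

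Rpl5 and Rpl11, which with the 5S RNA form the particle that binds Mdm2, had small differences. Rpl5 had a log2 fold change of -0.08 (SE 0.09, adjusted p = 0.463 by edgeR). Rpl11 was at 20.4 to 27.8 CPM in WT and 18.9 to 21.8 CPM in SMA, with overlap (log2 fold change -0.24, SE 0.09, adjusted p = 0.0487). Its call was lost when any of 7 libraries was left out.

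Most of the genes that rose share sequence with other genes. Of the 14 members with at least 90% of their 75-base windows in no other annotated gene, none rose and 5 fell (Rpl3l, Rpl39l, Rpl7l1, Rpl39 and Rpl32). Of the 41 with under 50% of such windows, 7 rose and 10 fell, and of the 29 between, 2 rose and 7 fell. Rpl10 had 8.14%, Rpl9 8.73%, Rps27 1.48% and Rps18 22.2% of windows of their own, while Rpl28 had 56.3%. Rps15a and Rps20 are among the 14 with the long transcripts used here, of 5130 and 3706 bases. Rps15a shares windows with its copies Rps15a-ps4 and Rps15a-ps6, which held 37.4% of their summed CPM in WT. Across the 84 members, which share libraries, the windows' share and the log2 fold change had a Pearson r of -0.27 and a Spearman rho of -0.19, given as a description.

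Some copies left out by their names took more counts than the gene itself. Rpl14-ps1 was at 181 CPM in WT against 96.9 for Rpl14, Rpl31-ps12 at 57.4 against 14.2 for Rpl31, and Rpl37rt at 202 against 14.1 for Rpl37. Rows with unrelated names share windows as well. Gm5148 and C330021F23Rik, at 342 and 123 CPM in WT, share windows with Rps23, at 57.5 CPM. BC004004, at 86.5 CPM, shares windows with Rpl21, at 41.0 CPM. The levels of these ribosomal protein genes are therefore uncertain. With the copies of Rpl14, Rpl31, Rpl37, Rps15a and Rps19 added to their genes, 9 members rose and 23 fell. The rows with unrelated names were not added.

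Per kilobase, the members' mRNA levels in WT muscle ran from 0.774 to 770 CPM per kilobase (84 genes, median 72.2). The highest were Rpl29 (770), Rplp1 (769), Rps15 (653), Rps14 (618) and Rpl8 (582), with SDs over the WT libraries of 63.6 to 80.7 CPM per kilobase. Rpl29 and Rplp1 differed by less than that SD, as did Rps15 from Rps14 and Rps14 from Rpl8. The lowest were Rpl39l (0.774), Rpl26 (3.42), Rps4l (4.10), Rpl30 (10.97) and Rpl28 (12.4). Rpl3l was 13th and Rpl3 67th in this order. Over the windows found in no other gene in place of length, the spread of log2 levels was about as wide, with an SD of 2.09 against 1.94.

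RefSeq promoters (GRCm38.p6) were found for 64 of the 85 members. An unbroken run of at least 8 bases that are each C or T, searched on the transcribed strand from 20 bases before to 20 bases after each start, was present at 31 of the 76 starts of members (40.8%) and at 16.05% of the 32851 starts in the table. By the start nearest to the transcript used, 28 tested members had such a run, of which 3 rose and 7 fell, and 35 had none, of which 4 rose and 10 fell. The 30 bases around the start, 15 before it and 15 from it, are shown for 4 members with such a run, of which Rps18, Rps27 and Rpl28 rose and Rpl22l1 fell, and for 3 paralogues without one, all of which fell. The 4 members that rose without a run are not shown, and of the 7 that fell with one only Rpl22l1 is. The sequences shown are therefore no guide to these counts. Capitals mark the longest run of C and T in these 30 bases:
Rps18: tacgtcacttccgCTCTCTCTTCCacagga
Rps27: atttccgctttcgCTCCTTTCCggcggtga
Rpl28: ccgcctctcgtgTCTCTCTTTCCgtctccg
Rpl22l1: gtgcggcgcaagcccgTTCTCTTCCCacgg
Rpl3l: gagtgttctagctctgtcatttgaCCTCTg
Rpl36al: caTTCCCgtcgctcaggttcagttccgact
Rpl7l1: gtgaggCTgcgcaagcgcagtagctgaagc

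These windows lie at chr17:33955651-33955680 (minus strand) for Rps18, chr3:90213634-90213663 (minus) for Rps27, chr7:4792950-4792979 (plus) for Rpl28 and chr3:28805493-28805522 (plus) for Rpl22l1. Those of the paralogues without a run lie at chr17:24727811-24727840 (plus) for Rpl3l, chr12:69184053-69184082 (minus) for Rpl36al and chr17:46782642-46782671 (minus) for Rpl7l1. The share of risen and fallen genes was much alike with and without the run, and no test was made of it.

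Related genes were read from lists of their own. Among ribosomal proteins whose symbols the rule does not take, Fau, made as a fusion with a ubiquitin-like protein, rose from 23.7 to 30.3 CPM in WT to 42.4 to 50.0 CPM in SMA (log2 fold change 0.82, SE 0.09, edgeR adjusted p = 1.35e-05). The scaffold protein Rack1 (listed as Gnb2l1) had a log2 fold change of -0.10 and did not pass.

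Of 19 other genes with TOP-type mRNAs, Fau and Rack1 included, 9 rose and 1 (Pabpc1, the poly(A)-binding protein) fell, with a median log2 fold change of 0.18. Over all genes tested, 27.7% rose and 27.2% fell. Eef1a1, the elongation factor that brings tRNA to the ribosome, was at 881, 991, 913, 976 and 677 CPM in WT and 1973, 1691, 1604 and 1668 CPM in SMA (log2 fold change 0.97, SE 0.12, adjusted p = 4.62e-05 by edgeR). No SMA library came near the WT range. Its muscle and nerve counterpart Eef1a2 was at 965 to 1578 CPM in WT and 671 to 797 CPM in SMA (log2 fold change -0.80, SE 0.15, adjusted p = 0.000952). Eif4b, an initiation factor, rose by 0.78 on the log2 scale. With total-count scaling 11 of the 19 rose and 0 fell, against 40.2% and 13.6% of all genes tested.

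Of 10 genes that host small nucleolar RNAs, many of whose transcripts also start with such tracts, 9 rose and none fell, with a median of 0.54. Over all genes tested, 27.7% rose and 27.2% fell. Gm11974 (Snhg15) and 2410004N09Rik (Epb41l4aos) rose by 1.38 and 1.36 on the log2 scale, and Gas5 by 0.49. Snhg8 did not pass (0.44, adjusted p = 0.0727 by edgeR). With total-count scaling 10 of the list rose and 0 fell, against 40.2% and 13.6% of all genes tested. These counts describe the list and carry no test of it.

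Genes of the machinery that makes and runs ribosomes rose and fell at shares close to the 27.7% and 27.2% of all genes tested in most of these lists. Of 15 genes of RNA polymerase I transcription, 5 rose and 4 fell (median 0.16), with Taf1d at 0.97 and Taf1c at 0.70. Of 50 ribosome assembly genes, 15 rose and 14 fell (median 0.05). Lsg1, a GTPase that acts in the last cytoplasmic steps of the large subunit, rose from 17.1 to 20.6 CPM in WT to 34.9 to 45.4 CPM in SMA (log2 fold change 1.11, SE 0.09, edgeR adjusted p = 1.52e-06), and Nob1, the nuclease that completes the RNA of the small subunit, rose by 0.64. Of 36 initiation factors, 12 rose and 9 fell (median -0.03), and of 13 elongation and termination genes, 3 rose and 5 fell (median -0.15). Scaled to total counts, 10 and 0 of the polymerase I genes, 26 and 7 of the assembly genes, 16 and 3 of the initiation factors and 4 and 3 of the elongation and termination genes rose and fell, against 40.2% and 13.6% of all genes tested.

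Of 16 genes of mTORC1 and Myc control, 9 rose and 2 fell, with a median of 0.37, against 27.7% and 27.2% of all genes tested. Eif4ebp1, the inhibitor of cap-dependent translation that mTORC1 switches off, was at 47.0 to 66.5 CPM in WT and 111 to 138 CPM in SMA (log2 fold change 1.05, SE 0.11, adjusted p = 9.84e-06 by edgeR). Mycn fell by 1.59 on the log2 scale, from 2.68 to 4.86 CPM in WT to 0.716 to 1.57 CPM in SMA, and Max, the partner of Myc proteins, rose by 0.92. Myc, Rheb and Akt1 had log2 fold changes of 0.00. With total-count scaling 11 of the 16 rose and 1 fell, against 40.2% and 13.6% of all genes tested. The list as a whole was not tested.

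**Figure D5:**
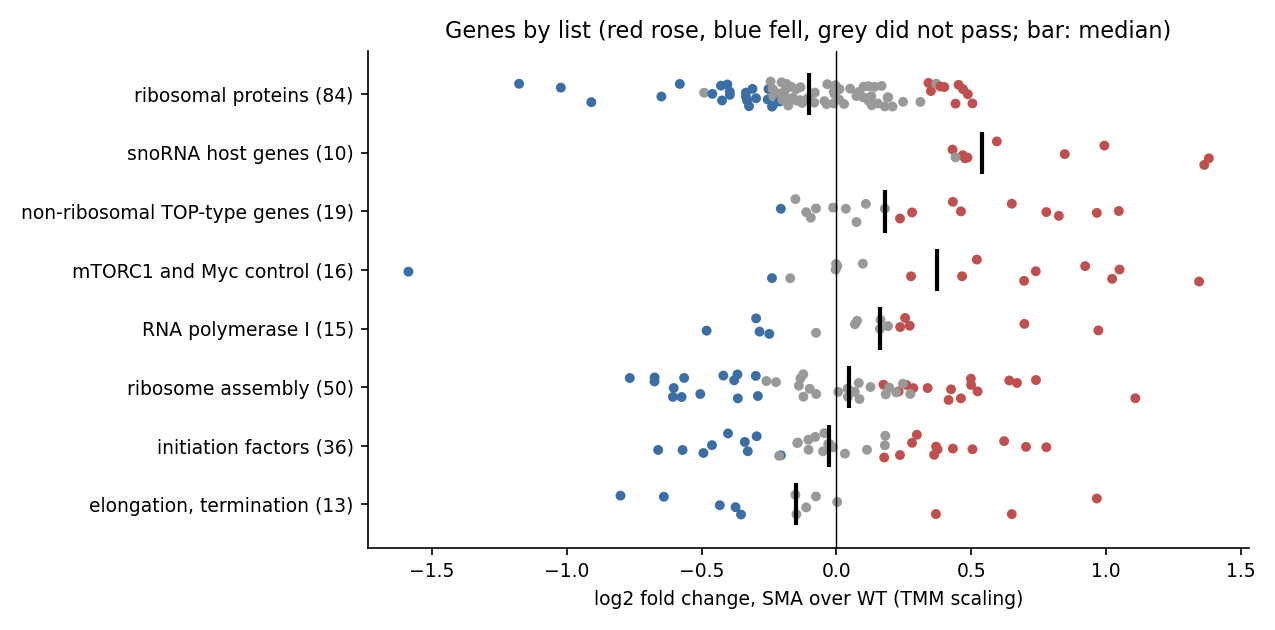
Log2 fold change (SMA over WT, TMM scaling) of every tested gene in the ribosomal protein group and 7 lists of related genes, with the number tested in brackets, red for rose, blue for fell, grey for not passed and a bar at each median. The ribosomal proteins lie around their median of -0.10, and the snoRNA host genes lie to the right of 0.

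The mitochondrial ribosomal proteins, encoded by nuclear Mrpl and Mrps genes, are a separate set that makes the proteins of the mitochondrial genome. Of 76 tested, 2 rose and 46 fell, with a median log2 fold change of -0.29, beside 9 and 22 of 84 and -0.10 for the cytosolic set, and 27.7% and 27.2% of all genes tested. Scaled to total counts, 11 rose and 18 fell, with a median of -0.05, beside 25 and 3 of the cytosolic set and 40.2% and 13.6% of all genes tested. The difference between the sets was not tested.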

How the data were processed

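Per the labels' protocols, 200 ng of total RNA with an integrity number above 7 per sample went through a stranded mRNA preparation. The build mm10 and the tools HTSeq 0.9.1 and DESeq2 1.16.1 are named, per the submitters' processing notes. The sources used here do not give the aligner, the annotation, the strand setting or the treatment of reads that fit several genes. The authors deposited whole-number counts per gene, which were analysed here, and a signal, each count divided by a size factor per library (0.734 to 1.23), which served as a check. No 2 libraries of a group agreed within sampling noise (chi-square per degree of freedom 12 to 87.5).

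Counts were filtered with filterByExpr, scaled by TMM and fitted in edgeR 4.0.16 (R 4.3.3) with group as the only term, and p-values were adjusted over 15873 genes. The script was tested on simulated data. Alternatives used limma 3.58.1 (voom), DESeq2 1.42.0, other scalings and filters, sex, a replicate block and left-out libraries. Levels per kilobase and 75-base windows used 1 transcript per gene from GENCODE M21 (GRCm38), chosen by APPRIS rank, basic tag, support level and then the shortest. Windows were compared with all annotated transcripts on both strands. Of 230 listed genes, 222 matched by symbol and 6 by another name.

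The members and lists were chosen with earlier results of these data known. Named are both genes of each paralogue pair, the stalk proteins, Rpsa, Rpl5, Rpl11, Rps6, the 6 largest rises and 6 largest falls among those past the threshold, the 5 highest and 5 lowest levels per length, and the 2 genes of lowest adjusted p of each list, except for a few genes that are not reported here. Other names (Rps2, Rps10, Rps29, Rps26, Rpl15, Rpl31, Rpl41, Rpl34, Rpl27a, Rpl32, Rps27a, Rps19, Rps23, Rpl21, Eef1a2, Mycn, Gas5, Snhg8, Pabpc1, Myc, Rheb, Akt1, and the copies and other rows that share windows) were chosen after their values were seen.

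Summed CPM of other markers, with no test of their part in any result, ranged as follows. Fibroblast markers had 3106 to 5532 in WT and 1833 to 2706 in SMA, proliferating-cell markers 133 to 173 and 41.5 to 54.4, Schwann-cell markers 386 to 885 and 985 to 2223, erythroid markers 1214 to 2038 and 602 to 957, and satellite-cell markers 239 to 324 and 205 to 214. Macrophage, lymphocyte, endothelial and adipocyte sums overlapped between the groups.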

Additional observations from a re-analysis of the deposited data

Results flagged for a closer look

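In 100 groups of values for the named genes, 14 held a library far from the others by Dixon's test, where chance alone gives about 1 in 20. WT replicate 5 was low for Rpl3 (23.4 CPM, others from 35.5 to 36.9), Max (29.6 CPM, others from 34.3 to 35.8) and Eif4ebp1 (47.0 CPM, others from 62.9 to 66.5), and high for Rpl36al (17.9 CPM, others from 14.5 to 15.2). WT replicate 4 was high for Rpl39 (56.6 CPM, others from 44.8 to 46.7) and Rplp1 (439.9 CPM, others from 365 to 377), and low for Smn1 (11.1 CPM, others from 13.1 to 13.8). WT replicate 3 was low for Rpl39l (0.267 CPM, others from 0.660 to 0.804). Among the SMA libraries, replicate 1 was high for Rpl3 (53.1 CPM, others from 45.7 to 46.2), replicate 2 low for Rps4x (226 CPM, others from 259 to 261) and Rpl5 (40.2 CPM, others from 43.6 to 44.0), and replicate 3 high for Rpl7l1 (42.9 CPM, others from 36.2 to 37.2). SMA replicate 4 was high for Rpl26 (1.91 CPM, others from 0.973 to 1.12) and low for Taf1c (12.3 CPM, others from 13.4 to 13.5). Without SMA replicate 4, Rpl26 passed the test (log2 fold change -0.75, edgeR adjusted p = 0.0122).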

How the results depend on the processing

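Rpl3l, Rpl3 and the share of the pair kept their direction and their side of the threshold under every alternative run. Scaled to total counts, 25 members rose and 3 fell, 2164 of all genes tested fell, the members' median was 0.13 and Rplp0 was at 0.023. Leaving out 1 library at a time gave 8 to 13 members that rose and 14 to 29 that fell. In the same fits 3916 to 4536 of all genes rose and 3739 to 4547 fell. Without WT replicate 5 and SMA replicate 3 together, 36 members fell, with no count over all genes given for that fit. Of the members with at least 90% of windows in no other gene, 0 rose and 5 fell (a count chosen after seeing the data, as were the counts with paralogues left out and with copies summed).

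With sex as a covariate 7 rose and 15 fell, and Rpl3l and Rpl3 were at -1.16 and 0.44. DESeq2 gave 10 and 27, limma-voom 9 and 22. Taken strictly, with at most 1 letter after the digits, the rule left 80 tested members, of which 9 rose and 19 fell. The replicate numbers did not pair the libraries (correlations of deviations from -0.05 to 0.12, and no SMA library was closest to the WT library of its number). With the replicate block 9 rose and 20 fell, and Rpl3l and Rpl3 were at -1.15 and 0.39. The counts under these alternatives have no count over all genes beside them and describe the members alone.

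Of the values of the named genes other than Rpl3l and Rpl3, 854 kept their direction and their side of the threshold, 37 lost and 12 gained the threshold and 14 changed sign. Among those 14 only Rplp0 had passed the test. The others had not, and with total counts were Rpl7 (0.11), Rps4x (0.12), Rpl5 (0.15), Rps6 (0.22), Rpl29 (0.098), Rps15 (0.00033), Rpl8 (0.064) and Rack1 (0.14). Rplp2 was at -0.14 with sex as a covariate, and when 1 library was left out Rplp2 ranged from -0.070 to 0.13 and Rps6 from -0.068 to 0.048. Rpl39l, Rplp0 and Rpl11 lost it most often. Depth limits Rpl10l and Rpl39l, and levels of genes with few windows of their own stay uncertain.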
